A study of Mus musculus with 2 samples.

Results

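Complex I of the respiratory chain was followed through the transcripts of its nuclear genes in bone marrow LSK cells (Lin-Sca-1+c-Kit+, the fraction that holds stem cells and early progenitors) of mice with chronic myeloid leukemia (CML). The members were chosen by name only: every feature whose symbol starts with Nduf, with the pseudogene suffix -ps left out, which gave 46 of the 32285 features counted. They comprise 36 structural subunits, 8 assembly factors (Ndufaf1 to Ndufaf8), Ndufa4, and its paralog Ndufa4l2. The single cell RNA-seq held 2 libraries, 1 from miR-142 wild-type CML mice (miR-142 WT CML) and 1 from miR-142 knockout CML mice (miR-142 KO CML), and asked how the loss of this microRNA bears on the leukemic stem cell compartment. Both carried SCLtTA and BCR-ABL, so that BCR-ABL is made under the SCL promoter once tetracycline is withdrawn, and the LSKs were sorted after 2 weeks of induction from mice 8 to 10 weeks old. BCR-ABL was thus on in both groups, and no library without it entered the comparison. How many mice went into a library was not given in the sources used here. With 1 library per group no statistical test was possible, and the intervals below (95%, exact) express counting error, with nothing of the variation among animals.

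Complex I, the NADH:ubiquinone oxidoreductase, takes electrons from NADH, passes them along iron-sulfur clusters to ubiquinone and pumps protons across the inner mitochondrial membrane. Its N module oxidises NADH, its Q module reduces ubiquinone, and its membrane arm (the ND1, ND2, ND4 and ND5 modules, named for their mitochondrially encoded subunits) moves the protons. The catalytic core is built from both genomes, a further set of supernumerary subunits surrounds it, and assembly factors join the modules without staying in the finished enzyme.

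The microRNA that separates the groups was examined first for letters that pair with it in the members. Both mature strands are shown because their seeds (bases 2 to 8, in capitals) define the sites searched. The sequences are from RefSeq (GRCm38.p6), plus strand.
mmu-miR-142a-5p (chr11:87756867-87756887): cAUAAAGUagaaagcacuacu
mmu-miR-142a-3p (chr11:87756903-87756925): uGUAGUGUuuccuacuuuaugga
The seed match ACTTTAT was found in the longest annotated 3′ UTR of 1 of 46 members (2.17%) against 3077 of 20903 genes (14.7%), and ACACTAC also in 1 of 46 members (2.17%) against 1364 of 20903 genes (6.53%). Members have short 3′ UTRs, with a median of 301 bases against 1090 over all genes. The members holding a match were Ndufaf4, whose product helps assemble the Q module, and Ndufab1, the mitochondrial acyl carrier protein. Their sites are shown with the match in capitals.
Ndufaf4, site for the 5p strand: ttgctctgactACTTTATaaactactgtc
Ndufab1, site for the 3p strand: tagagcagtccACACTACaaatcagagaa
A match describes the letters only. Over all cells the log2 ratio of Ndufaf4 (KO over WT) was 0.18 and that of Ndufab1 was 0.23. In the marker-gated cell groups described further on, Ndufaf4 was above 0 in 5 and below 0 in 1, the granule-high cells (-0.15, -0.20 to -0.10). Ndufab1 was above 0 in 3 groups and below 0 in 3. Whether the sites bear on these ratios was not tested.

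Cells were barcodes with at least 8000 UMIs (unique molecular identifiers, 1 per captured transcript) and under 10% mitochondrial UMIs, which left 5363 cells with 138183896 UMIs in miR-142 WT CML and 5458 cells with 158438757 UMIs in miR-142 KO CML. A WT cell held 19443 UMIs at the median and a KO cell 24181.5, of which mitochondrial UMIs made 2.85% and 2.004%. The knockout was visible in Mir142hg, the host transcript of the microRNA, with 1260 UMIs in WT and 20 in KO. The sort markers Kit (86.4 and 68.3 CPM, the UMIs of a gene scaled to the same library total) and Ly6a, which encodes Sca-1 (96.8 and 153 CPM), were present, and 7 lineage genes summed to 12.9 and 12.01 CPM. Plasma cell genes, led by Igkc, summed to 3900 CPM in WT and 3.26 CPM in KO. The libraries shared 4 cell barcodes.

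Summed over all cells, Nduf transcripts took a larger share of the RNA in miR-142 KO CML. They made 1327524 UMIs in WT, or 0.961% of all UMIs (0.959 to 0.962), and 1728672 UMIs in KO, or 1.09% (1.09 to 1.09). The KO share was 1.14-fold higher, a log2 ratio of 0.18 (0.18 to 0.19). It was 0.06 with both libraries weighted to 1 composition of the marker-gated cell groups described further on, and 0.05 without the granule-high cells among them. With those groups and bins of UMIs per cell weighted together it was 0.10. The structural subunits alone gave 0.817% and 0.941%, and the assembly factors 0.0397% and 0.0420%. In free RNA, taken from barcodes with at most 100 UMIs, the Nduf share was 1.11% in WT and 1.25% in KO, so it differed in the same direction as in cells, and its part in the cell values was not tested.

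Of the 46 members, 45 reached a mean of 10 CPM over both libraries, and their median log2 ratio was 0.20 against -0.08 over the 7482 features at that level with UMIs in both libraries. The all-feature value depended on level: at a floor of 50 CPM the median was 0.21 over 39 members and 0.01 over all features. At 10 CPM, 40 members were above 0 and 5 below, against 2850 and 4632 of the 7482 features. At least 1.2-fold higher in KO were 10 of 45 members, where the same was true of 10.6% of all features tested. This count was 0 when both libraries were weighted to 1 composition of the cell groups described further on. At least 1.2-fold lower in KO was 1 of 45 members, against 25% of all features. The member left below 10 CPM was Ndufa4l2, a paralog that in other tissues is induced by hypoxia, with 3 UMIs in WT and 0 in KO, too few for a ratio.

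**Figure D1:**
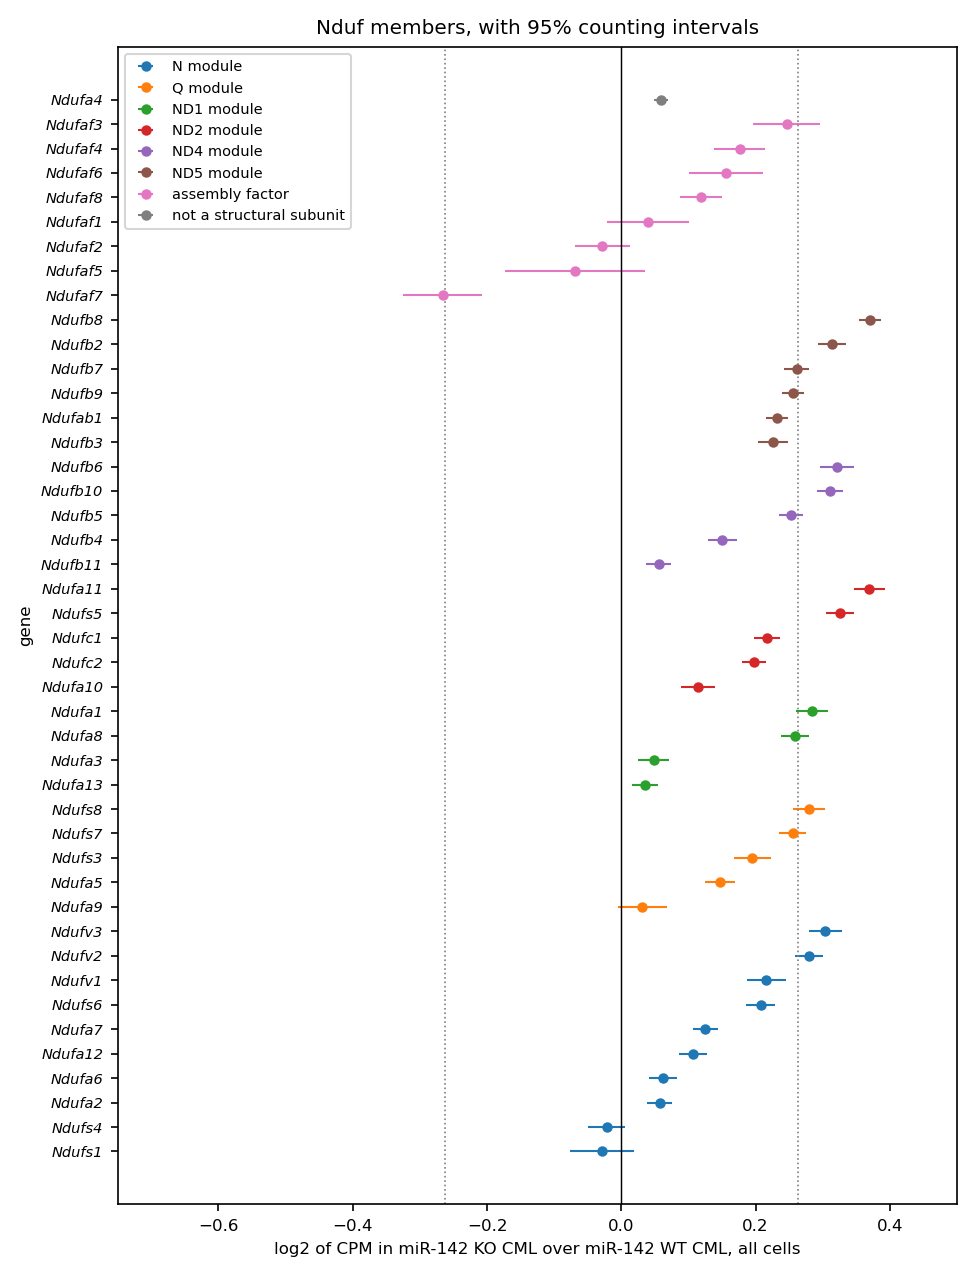
Each point is the log2 ratio of CPM (KO over WT, all cells, horizontal axis) of 1 of 44 members, coloured by module, with its 95% counting interval, and dotted lines mark 1.2-fold. The ND5 subunits all lie at 0.23 or above, while the assembly factors spread from -0.27 (Ndufaf7) to 0.25 (Ndufaf3).

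In the N module, which holds the NADH-binding tip, the median log2 ratio was 0.12 over 10 members. Ndufv1, the subunit that binds FMN and NADH, had 117 CPM in WT and 136 CPM in KO, which gave a log2 ratio of 0.22 (0.19 to 0.25). Ndufv2, its partner with an iron-sulfur cluster, had 227 and 276 CPM (0.28, 0.26 to 0.30). The third core subunit of this module had a lower ratio: Ndufs1, the large iron-sulfur subunit, had 48.7 CPM in WT and 47.7 CPM in KO, and its interval of -0.08 to 0.02 included 0. Ndufs4, a small subunit added late and known for causing Leigh syndrome when lost, likewise had 141 and 139 CPM (-0.02, -0.05 to 0.01). Neither kept its sign over the alternative settings, which ranged from -0.12 to 0.10 for Ndufs1 and from -0.11 to 0.06 for Ndufs4. The other members of the module were between 0.06 (Ndufa2) and 0.30 (Ndufv3).

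In the Q module, where electrons reach ubiquinone, all 6 members were above 0 over all cells, with a median of 0.17. In the gated groups described further on, Ndufs8 was above 0 and Ndufa5 below 0 in all 6. Ndufs8 had 184 CPM in WT and 223 CPM in KO (0.28, 0.26 to 0.30) and Ndufs7 had 239 and 285 CPM (0.26, 0.23 to 0.28), both of them subunits that carry iron-sulfur clusters. Ndufs3 had 139 and 159 CPM (0.20, 0.17 to 0.22). Over the 7 nuclear core subunits the median was 0.22, with 6 of 7 above 0 and Ndufs1 below.

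The membrane arm held the members with the highest ratios. Its medians over all cells were 0.15 in the ND1 module (4 members), 0.22 in ND2 (5 members), 0.25 in ND4 (5 members) and 0.26 in ND5 (6 members). All 20 of these subunits were above 0 over all cells. Ndufb8, a single-pass subunit of the distal arm often blotted as a marker of assembled complex I, had 354 CPM in WT and 458 CPM in KO (0.37, 0.35 to 0.39), or 1.29-fold. Its gene (ENSMUSG00000025204) lies on the minus strand of chromosome 19 from 44548572 to 44555440 (GRCm38). Ndufa11, a multi-pass subunit of the middle of the arm, had 195 and 251 CPM (0.37, 0.35 to 0.39). Next came Ndufs5 of the ND2 module, with 219 and 274 CPM (0.33, 0.30 to 0.35), Ndufb6 of the ND4 module, with 156 and 195 CPM (0.32, 0.30 to 0.35), and Ndufb2 of the ND5 module, with 232 and 289 CPM (0.31, 0.29 to 0.33). Over the alternative settings the lowest ratios of these 5 were 0.21 for Ndufb8, 0.20 for Ndufa11, 0.12 for Ndufs5, 0.10 for Ndufb6 and 0.15 for Ndufb2, so none stayed 1.2-fold higher throughout. The lowest of the arm were Ndufa13 (0.03), Ndufa3 (0.05) and Ndufb11 (0.06). Within the gated groups described further on, not all of the arm was above 0. Ndufb3 of ND5 (0.23 over all cells) and Ndufa3 of ND1 were below 0 in 5 of 6 groups, and Ndufc1 of ND2 (0.22) in 4. Ndufa1, Ndufa8, Ndufa11, Ndufb10 and Ndufs5 were above 0 in all 6. Reads of Ndufs5 carry an added doubt, since 52.7% of the 60-base words in the last 300 bases of its longest transcript also occur in BC002163, and 51.0% of those of Ndufs3 occur in Gm12251. How the counting treated such reads was not examined, and 39 of 46 members shared no such word with another gene.

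The assembly factors did not follow the subunits as a group: their median was 0.08, with 5 above 0 and 3 below. Ndufaf7, a mitochondrial methyltransferase, was the member called lower, with 34.8 CPM in WT and 29.0 CPM in KO (-0.27, -0.32 to -0.21), from a gene (ENSMUSG00000024082) at chr17:78937136-78948052, plus strand. Ndufaf5, a hydroxylase that modifies Ndufs7, had 10.5 and 10.0 CPM (-0.07, -0.17 to 0.03), and Ndufaf8, its partner protein, had 109 and 119 CPM (0.12, 0.09 to 0.15). Ndufaf3 and Ndufaf4, which act together on the Q module, had 40.7 and 48.3 CPM (0.25, 0.20 to 0.30) and 72.9 and 82.4 CPM (0.18, 0.14 to 0.21). Ndufaf6, which acts early in assembly, had 33.9 and 37.8 CPM (0.16, 0.10 to 0.21). Ndufaf1, part of the complex that builds the ND2 module, had 28.7 and 29.5 CPM (0.04, -0.02 to 0.10), and Ndufaf2, a chaperone of late assembly, had 66.2 and 64.9 CPM (-0.03, -0.07 to 0.01). Of the 8, only Ndufaf3 and Ndufaf7 kept their sign under every alternative setting tried (0.06 to 0.32 and -0.29 to -0.19). Of 12 further assembly genes without the Nduf name, 11 reached 10 CPM and had a median of -0.05, with 4 above and 7 below 0. Their extremes were Dmac2 (23.8 and 19.6 CPM, -0.28) and Ecsit (30.9 and 34.6 CPM, 0.16).

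Ndufa4 stood apart in level. It is now assigned to cytochrome c oxidase (complex IV) rather than to complex I, and it had 1042 CPM in WT and 1085 CPM in KO on the scale of 3′ UMIs, which count molecules and are not divided by transcript length. The gene (ENSMUSG00000029632) lies on the minus strand of chromosome 6 from 11900292 to 11907497. It made 10.8% of all Nduf UMIs in WT and 9.94% in KO. Without it the summed Nduf ratio was 0.20 (0.19 to 0.20). By the mean of both libraries, the next highest levels on the same scale were those of Ndufb9 (379 and 452 CPM) and Ndufb8.

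The mitochondrially encoded part of the enzyme differed in the opposite direction. All 7 mt-Nd transcripts were lower in KO, from mt-Nd2 (817 CPM in WT and 505 CPM in KO, -0.69) to mt-Nd4l (416 and 372 CPM, -0.16), and their sum was 0.432% of UMIs in WT and 0.332% in KO (log2 ratio -0.38, -0.39 to -0.38). The nuclear subunits of the other complexes that pump protons or make ATP had medians near that of the Nduf members: 0.23 for 9 genes of complex III, 0.21 for 10 of complex IV and 0.16 for 16 of complex V. Complex II, which pumps no protons, had a median of -0.03 over its 4 genes. Of 10 listed regulators of respiratory genes, 8 reached 10 CPM, with 2 above and 6 below 0, among them Esrra (14.6 and 20.8 CPM, 0.51), Nrf1 (27.0 and 22.6 CPM, -0.26) and Pprc1 (18.3 and 14.2 CPM, -0.37).

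The libraries differed in which cells they held, and the Nduf level differed between cells. Cells were gated on markers after each had been thinned to 8000 UMIs. Cells with at least 40 UMIs of Ctsg, Elane, Mpo and Prtn3, which encode neutrophil granule proteins, were called granule-high, and the rest took the name of the list with most distinct markers found, at least 3, or stayed ungated. Granule-high cells made 17.6% of the WT library (16.6 to 18.6) and 54.6% of the KO library (53.2 to 55.9), and the same genes summed to 5829 and 13351 CPM. HSC-like cells made 23.0% and 5.48%. The cells near the granule limit, with 30 to 49 such UMIs, numbered 410 in WT and 648 in KO. In free RNA the granule genes summed to 5848 and 13457 CPM, and the part this played in the gate was not tested.

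Within a library, granule-high cells carried more Nduf RNA than HSC-like cells. Summed Nduf transcripts made 0.796% of UMIs in HSC-like and 1.10% in granule-high cells of WT, and 0.844% and 1.15% in those of KO. By member, 44 of 45 were higher in granule-high than in HSC-like cells in WT (median log2 ratio 0.48) and 43 of 45 in KO (median 0.45). How many of all features do the same was not counted, so this is not read as a trait of the members. Granule-high cells were also deeper than HSC-like cells, at 52700 against 12613.5 UMIs at the median in WT and 37797 against 10980 in KO. The part of depth in this comparison was not tested. Ndufa6 was the lowest member of this comparison in both libraries, at -0.20 and -0.29. In WT the other compared groups lay between, with shares of 0.892% in lymphoid-primed-like, 0.930% in ungated, 0.944% in megakaryocyte-like and 0.883% in mast/basophil-like cells. The 39 plasma cell-like cells of WT had the lowest share, 0.422%, and none were gated in KO.

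**Figure D2:**
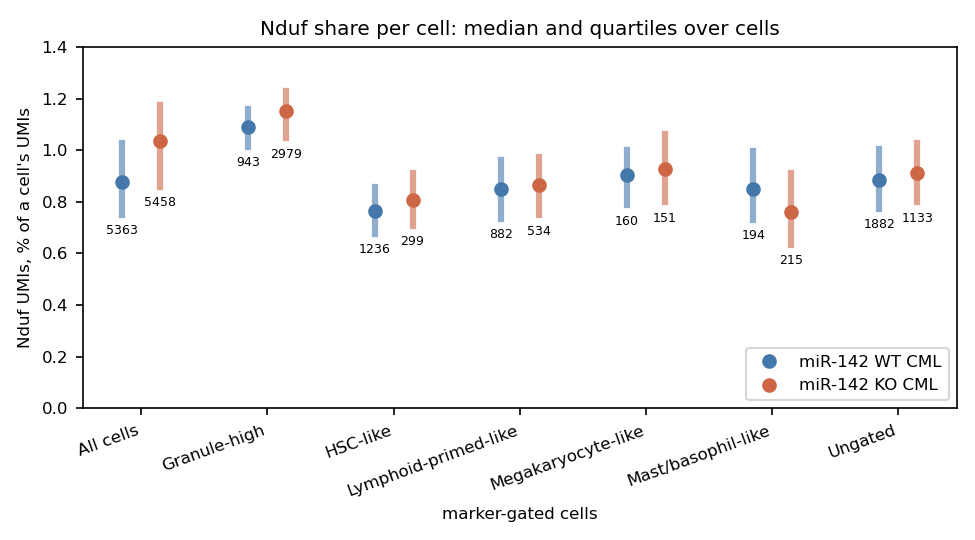
Points are the median and bars the quartiles over cells of the Nduf share (% of a cell's UMIs, vertical axis) in each gated group of both libraries, with the number of cells under each bar. Granule-high cells have the highest medians (1.09% WT, 1.15% KO), HSC-like cells lie at 0.766% and 0.808%, and mast/basophil-like cells at 0.850% and 0.762%.

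Compared group by group, the KO and WT libraries were closer than over all cells, but their cells were not matched in depth. KO cells were shallower in each group, for example 52700 (WT) and 37797 (KO) UMIs at the median in granule-high cells. They were also less often high in G2/M genes, for example 69.5% (WT) and 55.1% (KO) in the same cells. The Nduf share moved with both, as described further on, and their part in the group ratios was not tested. In granule-high cells (943 WT, 2979 KO) the summed log2 ratio was 0.08 (0.07 to 0.08) and the median member 0.05. At least 1.2-fold higher was 1 of 45 members against 10.5% of features, and 1 of 45 was lower against 16.3%. In HSC-like cells (1236 and 299) the summed ratio was 0.08 (0.07 to 0.10) and the median 0.10, with 4 of 44 members at least 1.2-fold higher against 11.6% and 0 lower against 19.8%. The 4 members are a share near that of all features.

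In lymphoid-primed-like cells (882 and 534) the summed ratio was 0.02 (0.01 to 0.03) and the median 0.03, with 1 of 44 members at least 1.2-fold higher against 11.7% of features and 2 lower against 18.1%. In megakaryocyte-like cells (160 and 151) the summed ratio was 0.04 (0.01 to 0.06) and the median 0.01, with 3 of 44 members higher against 15.3% and 1 lower against 24.1%. In ungated cells (1882 and 1133) the summed ratio was 0.04 (0.03 to 0.05) and the median 0.03, with 0 of 44 members past 1.2-fold either way, against 8.97% of features higher and 13.3% lower. The all-cell ratio of 0.18 was thus larger than the ratio in each of the 6 groups compared. With both libraries weighted to 1 composition of groups the median member was at 0.01, and with granule-high cells left out at 0.06. With groups and bins of UMIs per cell weighted together the median member was at 0.08 and the summed ratio at 0.10. In each of these settings 0 members were 1.2-fold higher and 0 lower.

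Mast/basophil-like cells were the group in which the KO library was lower. In 194 WT and 215 KO cells the summed Nduf share was 0.883% and 0.814% (log2 ratio -0.12, -0.14 to -0.10), the median member was at -0.13, and 33 of the 45 members were below 0. At least 1.2-fold lower were 9 of 44 members against 25.3% of features, and 1 was higher against 24.8%. Nuclear subunits of complexes III to V had a median of -0.17 in the same cells. This gate mixes mast cell and basophil markers, and the share of cells high in G2/M genes was 29.9% in WT and 13.5% in KO. Among cells in which the mast cell protease Cma1 reached the summed basophil proteases Mcpt8 and Prss34 (126 WT, 169 KO), the Nduf share was 0.892% and 0.764% (-0.22, -0.25 to -0.20), with 37 of 44 members below 0. Among the others (68 and 46) it was 0.873% and 0.931% (0.09, 0.06 to 0.13), with 31 of 44 above 0. The lower value thus lay in the Cma1 part of the gate, a split made after the data were seen. KO cells were shallower in the Cma1 part (15581 WT and 14459 KO UMIs at the median) and deeper among the others (21588 and 23039.5). The part of depth in these ratios was not tested. The counts of members above or below 0 in these cells were not made over all features.

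**Figure D3:**
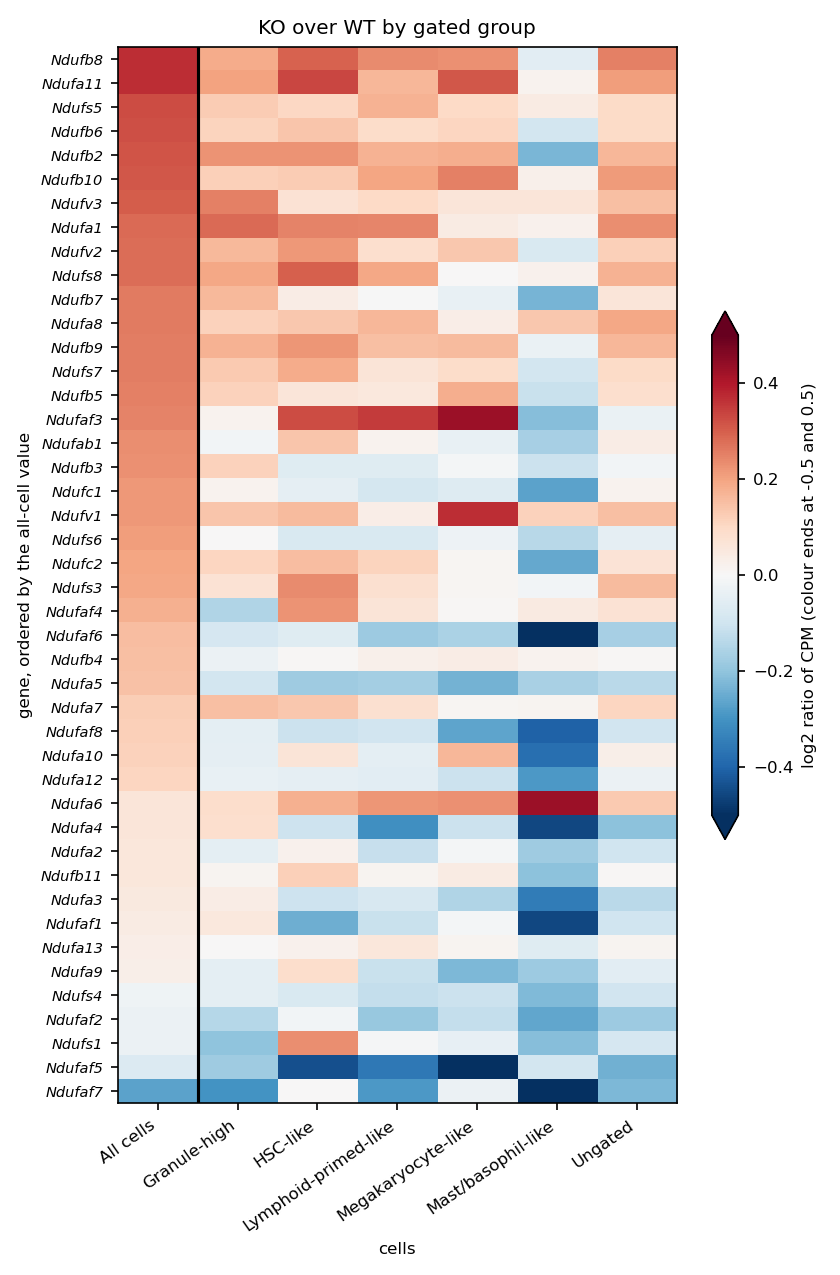
Colour gives the log2 ratio of CPM (KO over WT) of 44 members (rows, ordered by the all-cell ratio) in all cells (left of the line) and in 6 gated groups. Most all-cell ratios are paler within groups, the mast/basophil-like column is mostly blue, and Ndufa6 is red in all 6 groups although its all-cell ratio is 0.06.

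Single members differed in how they held across the groups, and the genes named here were picked after their values were seen. Above 0 in all 6 groups were 10 of 45 members: Ndufa1, Ndufa6, Ndufa7, Ndufa8, Ndufa11, Ndufb10, Ndufs5, Ndufs8, Ndufv1 and Ndufv3. A total of 21 were above 0 in the 5 groups other than mast/basophil-like cells, whatever the value there. The counts across groups given here and below were made for members only. How many of all features do the same was not counted, so they are not read as a trait of the members. Ndufa11 had 234 CPM in WT and 268 CPM in KO in granule-high cells (0.20), 146 and 184 CPM in HSC-like cells (0.33), 175 and 196 CPM in lymphoid-primed-like cells (0.17), 185 and 230 CPM in megakaryocyte-like cells (0.31), 229 and 231 CPM in mast/basophil-like cells (0.02) and 179 and 206 CPM in ungated cells (0.21). Only the mast/basophil-like interval of Ndufa11 (-0.11 to 0.15) included 0. Ndufb8 was between 0.18 and 0.29 in 5 groups and at -0.05 in mast/basophil-like cells.

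Ndufa6, an N module subunit that binds the acyl carrier protein, was the 1 member whose interval lay above 0 in all 6 groups. It had 216 CPM in WT and 230 CPM in KO in granule-high cells (0.09), 247 and 280 CPM in HSC-like cells (0.18), 241 and 281 CPM in lymphoid-primed-like cells (0.22), 244 and 286 CPM in megakaryocyte-like cells (0.23), 268 and 361 CPM in mast/basophil-like cells (0.43) and 239 and 261 CPM in ungated cells (0.13). Its all-cell values of 232 and 242 CPM gave only 0.06 (0.04 to 0.08), lower than in each group. It is also the member that was lowest in granule-high relative to HSC-like cells. Granule-high cells were the more frequent in KO, and their part in the all-cell ratio of Ndufa6 was not tested.

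The reverse was seen for 7 members that were below 0 in all 6 groups: Ndufa5, Ndufa12, Ndufs4, Ndufaf2, Ndufaf5, Ndufaf6 and Ndufaf8. For 4 of them, Ndufa5, Ndufa12, Ndufaf6 and Ndufaf8, the all-cell ratio was above 0. Ndufa5, of the Q module, had 209 CPM in WT and 231 CPM in KO over all cells (0.15, 0.12 to 0.17), yet 275 and 258 CPM in granule-high cells (-0.09), 151 and 133 CPM in HSC-like cells (-0.18), and 187 and 170 CPM in ungated cells (-0.13). Its intervals lay below 0 in 5 of the 6 groups. Intervals lay below 0 in 2 groups for Ndufa12, 3 for Ndufaf6 and 4 for Ndufaf8, and the rest included 0. For these 4 members the all-cell ratio thus had the opposite sign to the ratio in each group, within counting error in part of the groups. With groups and bins of UMIs per cell weighted together, Ndufaf6 was at 0.008 and Ndufaf8 at 0.007.

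Ndufa4 differed in direction between groups by more than its counting error. It had 1097 CPM in WT and 1163 CPM in KO in granule-high cells (0.08, 0.07 to 0.10). In the other groups it was lower in KO: 825 and 768 CPM in HSC-like cells (-0.10), 1091 and 881 CPM in lymphoid-primed-like cells (-0.31), 946 and 878 CPM in megakaryocyte-like cells (-0.11), 889 and 648 CPM in mast/basophil-like cells (-0.46) and 1095 and 950 CPM in ungated cells (-0.20). All 5 of these intervals lay below 0. Intervals on opposite sides of 0 in at least 1 pair of groups were found for 8 members, a count not made over all features.

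Ndufaf7 kept its direction in 5 groups. It had 35.3 and 28.8 CPM in granule-high cells (-0.30), 36.0 and 29.5 CPM in lymphoid-primed-like cells (-0.29), 28.4 and 18.8 CPM in mast/basophil-like cells (-0.59) and 35.7 and 30.5 CPM in ungated cells (-0.22), all with intervals below 0. In megakaryocyte-like cells the ratio was -0.03 (-0.46 to 0.40). In HSC-like cells it had 34.0 CPM in both libraries (0.00, -0.28 to 0.27). That interval overlaps those of the other groups, for example -0.38 to -0.21 in granule-high cells. The differences between groups were not tested.

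Inside the groups the mt-Nd transcripts were lower in KO as well, while the nuclear members differed little. Outside mast/basophil-like cells the Nduf medians ranged from 0.01 (megakaryocyte-like) to 0.10 (HSC-like). Members split 26 above and 18 below 0 in megakaryocyte-like cells, and 32 and 12 in HSC-like cells. The mt-Nd median was below 0 in all 6, at -0.23 in granule-high, -0.46 in HSC-like, -0.32 in lymphoid-primed-like, -0.41 in megakaryocyte-like, -0.13 in mast/basophil-like and -0.33 in ungated cells. In mast/basophil-like cells the Nduf median was below 0 too. The median mitochondrial share per cell was lower in KO in each group, for example 3.12% against 2.43% in HSC-like cells, and whether RNA quality takes part in this was not tested.

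**Figure D4:**
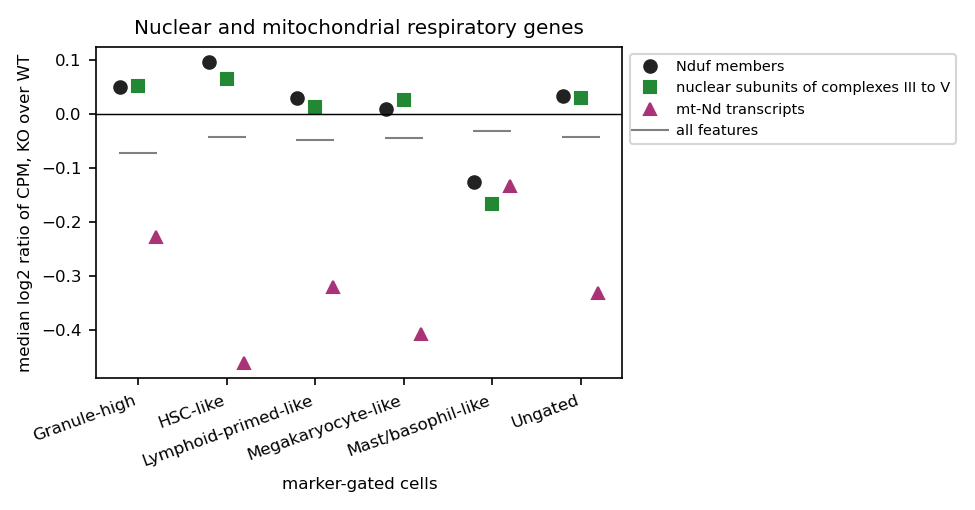
For each gated group, points give the median log2 ratio of CPM (KO over WT, vertical axis) of the Nduf members, of nuclear subunits of complexes III to V and of the 7 mt-Nd transcripts, and the grey line that of all features. The mt-Nd median is lowest in 5 groups, and in mast/basophil-like cells all 3 sets lie between -0.17 and -0.13.

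The Nduf share also moved with depth and with the cell cycle. In WT it was 0.751% in cells with 8000 to 12000 UMIs and 1.09% in cells with 48000 or more, and in KO 0.794% and 1.18%, higher in KO in each of the 6 depth bins. The share of granule-high cells changed over the same bins from 1.48% to 82.3% in WT and from 9.54% to 98.3% in KO. Depth and cell group thus changed together, although each bin held cells inside and outside the granule-high gate. Their separate parts in the Nduf share were not tested. Across cells thinned to 8000 UMIs, Spearman's rho between Nduf UMIs and the UMIs of the cell before thinning was 0.57 over 5363 WT cells and 0.68 over 5458 KO cells, a description of cells that share a library. Cells high in G2/M genes (at least 5 of 10 markers found) had a higher median Nduf share than the others in each of the 6 groups in both libraries, for example 0.797% against 0.755% in HSC-like cells of WT and 0.916% against 0.778% in those of KO. The G2/M-high cells were also deeper.

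**Figure D5:**
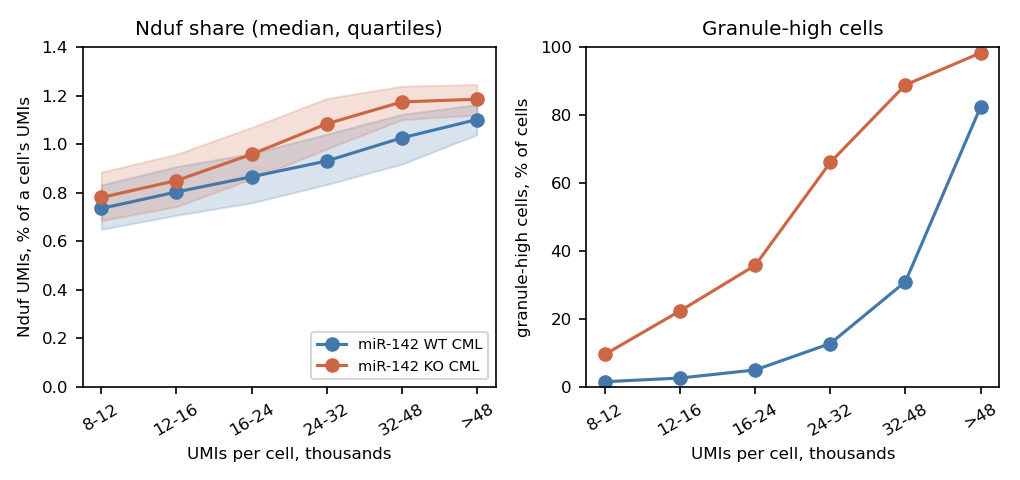
Left, the Nduf share (% of a cell's UMIs, median as points and quartiles as bands) and right, the share of granule-high cells (%), by bin of UMIs per cell for both libraries. The Nduf median is higher in KO in all 6 bins, and so is the share of granule-high cells.

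The members were compared with each other over the 12 values given by 6 groups in 2 libraries, points that share libraries and depth. Pearson's r of a member to the median member had a median of 0.81, and 12 of 45 members reached 0.9, with Ndufab1 (0.98) and Ndufb5 (0.97) highest. Ndufa6 (-0.69), Ndufa13 (-0.42) and Ndufa1 (-0.23) were below 0. The median member was taken over these same members, so each r in part sets a member against itself. How many other genes reached 0.9 was not counted, so the 12 members are not read as a trait of the family. Among 2698 other genes at 50 CPM or more, those most like the median member were Timm8a1 (r = 0.99, 167 CPM in WT and 223 CPM in KO), Agpat5 (0.99), Ciapin1 (0.98), Eif1ad (0.98) and Mrpl12 (0.98).

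Promoter letters were read for the members because most of them differed in the same direction over all cells. With 1 composition of gated groups the median member was at 0.01, and in mast/basophil-like cells 33 of 45 members were below 0. RefSeq windows (GRCm38.p6, 250 bases before to 50 after the start) matched 40 of 46 members. On either strand, the NRF1 core GCGCATGCG was in 4 of 40 members (10%) and in 1.95% of 27025 genes, the YY1 letters AAGATGGCG in 6 of 40 (15%) and 1.64%, and the ETS letters CCGGAAGT in 1 of 40 (2.5%) and 4.31%. The windows of the members with the highest and the lowest all-cell ratios are shown, with any of these letters in capitals. The NRF1 core overlaps its own reverse complement in Ndufa11, and that gene is counted once.
Ndufb8 (chr19:44555393-44555692, minus strand): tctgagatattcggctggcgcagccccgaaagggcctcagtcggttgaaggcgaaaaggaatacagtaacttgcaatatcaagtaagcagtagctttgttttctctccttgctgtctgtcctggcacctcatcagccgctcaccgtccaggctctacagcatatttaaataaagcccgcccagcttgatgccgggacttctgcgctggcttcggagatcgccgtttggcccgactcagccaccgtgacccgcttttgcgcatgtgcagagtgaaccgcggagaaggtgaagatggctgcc
Ndufa11 (chr17:56717512-56717811, plus strand): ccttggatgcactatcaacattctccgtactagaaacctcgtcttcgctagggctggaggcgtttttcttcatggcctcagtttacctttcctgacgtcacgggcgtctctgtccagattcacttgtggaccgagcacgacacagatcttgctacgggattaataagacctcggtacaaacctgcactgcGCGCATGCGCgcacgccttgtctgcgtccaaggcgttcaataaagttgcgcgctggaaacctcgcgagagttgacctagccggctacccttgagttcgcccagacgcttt
Ndufaf7 (chr17:78936885-78937184, plus strand): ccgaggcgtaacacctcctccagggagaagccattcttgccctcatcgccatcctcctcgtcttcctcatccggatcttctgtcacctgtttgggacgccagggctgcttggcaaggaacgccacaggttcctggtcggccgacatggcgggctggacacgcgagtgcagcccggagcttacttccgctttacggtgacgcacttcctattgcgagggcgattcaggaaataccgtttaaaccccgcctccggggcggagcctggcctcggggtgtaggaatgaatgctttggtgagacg
Ndufb8 (log2 ratio 0.37) and Ndufaf7 (-0.27) held none of the 3, and Ndufa11 (0.37) held the NRF1 core. No match says only that these letters are not in the window.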

How the data were processed

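LSKs were profiled with a 10x Genomics 3′ kit (v3.1), with about 8000 cells captured per sample, 1 library per group. The authors aligned the reads and counted UMIs per gene and barcode, and the deposited values are raw, unfiltered UMI counts. The study's methods name Cell Ranger 6.1.2, the matrix headers version 4, and the submitters' processing notes list the mm10 build. Gene positions are those of GRCm38 (GENCODE).

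Cells needed 8000 UMIs and under 10% mitochondrial UMIs. The study's limit of more than 300 UMIs leaves 8525 WT and 7099 KO barcodes. Counts were summed over cells and given as CPM. Log2 ratios carry exact conditional binomial intervals and shares of cells exact Clopper-Pearson intervals, checked on data drawn with known ratios. A member counted as higher or lower at 1.2-fold, at a mean of 10 CPM. Groups of under 100 cells in either library were not compared. Doublets were kept, since Scrublet (scanpy 1.11.5) marked 0.0186% and 0% of cells by its own threshold. In an alternative the highest scores were removed, 230 and 238 cells. Members named singly were the 7 nuclear core subunits, the 5 highest and 5 lowest ratios, the 3 highest levels, the assembly factors, Ndufa4 and Ndufa4l2. The members and gene lists were chosen with earlier results of these data known. The weighting by group and depth together and the split by Cma1 were added after seeing the data. The values of 1 member are not reported here, and it is left out of the plots of single members.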

Additional observations from a re-analysis of the deposited data

Results flagged for a closer look

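Mast/basophil-like cells differed from the other 5 groups in direction: their summed Nduf log2 ratio (KO over WT) was -0.12, while it was above 0 in the others. With 1 library per group this difference was not tested. Ndufa4 also went one way in granule-high cells (0.08) and the other way in lymphoid-primed-like (-0.31) and mast/basophil-like cells (-0.46), and these differences were not tested either.

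A signal outside the members came from Ndufb1-ps, a feature left out by the naming rule that the RefSeq annotation lists as the coding gene Ndufb1. Its UMIs numbered 65039 (WT) and 87999 (KO), or 471 and 555 CPM, a log2 ratio of 0.24 (0.22 to 0.25).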

How the results depend on the processing

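No value past 1.2-fold changed sign. No paired analysis was possible because each group is 1 library. Values in the order summed log2 ratio, median log2 ratio, members at least 1.2-fold higher and members at least 1.2-fold lower (as reported 0.18, 0.20, 10 and 1) became 0.26, 0.27, 23 and 0 with median-ratio size factors, which move the median of all features from -0.08 to -0.00. They became 0.0596, 0.0117, 0 and 0 with 1 composition of gated groups, 0.097, 0.081, 0 and 0 with groups and depth bins weighted together, and 0.0454, 0.0575, 0 and 0 without granule-high cells. The summed ratio was 0.18 with totals without mitochondrial, ribosomal protein and granule genes, 0.17 above 300 UMIs, 0.18 at 16000 UMIs or more, 0.19 as the mean of per-cell CPM, 0.19 when thinned and 0.21 without G2/M-high cells. The count lower was 0 for per-cell means (Ndufaf7 at -0.22), thinned cells (-0.20), cells without doublets (-0.26) and cells without G2/M-high cells (-0.26), and for a floor of 50 CPM, which Ndufaf7 does not reach. In mast/basophil-like cells the median member was 0.12 in the cells with Mcpt8 plus Prss34 above Cma1. The causes were not tested. The other 52 values kept their sign, or a count within 1.5 times the one reported: the count higher was 13 for per-cell means, 14 when thinned and 15 without G2/M-high cells, the ungated median was 0.09 at a granule limit of 80 UMIs, and the mast/basophil-like median was -0.23 in the Cma1 part. Of 23 named genes, 13 kept their sign under every alternative, and 0 stayed 1.2-fold higher. With 4 distinct markers megakaryocyte-like cells gave no value, as under 100 cells were left. Depth limits the assembly factors in small groups, where intervals are wide, and 1 library per group limits every value.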
